A study of Mus musculus with 8 samples.

Results

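A set of 10 genes of the Notch pathway were followed through the cells of the mouse dentate gyrus: the receptors Notch1, Notch2 and Notch3, the ligands Dll1 and Jag1, the glycosyltransferase Mfng, and the basic helix-loop-helix (bHLH) genes Hes1, Hes5, Hes6 and Hey1. They were chosen by symbol as 10 of the 31058 genes and elements counted, and all 10 were found. Each was measured in 13 cell types defined by marker genes that did not include any of the 10. Quiescent neural stem cells (NSCs), cycling NSCs, cycling and noncycling intermediate progenitor cells (IPCs), early and late neuroblasts form the neurogenic lineage. Astrocytes, oligodendrocyte precursor cells (OPCs), dividing OPCs, oligodendrocytes, mural cells, endothelial cells and microglia lie outside it.

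All cells came from Ki67TD-NES mice, which were heterozygous for Ki67-creERT2, a tdTomato reporter of Cre and Nestin-GFP on a mixed C57BL/6J and CD1 background. Cre in these animals was made in cells passing through the cell cycle, and every group had received tamoxifen, so no untreated or reporter-free control was among the samples. Mice of 1 month (1 experiment), 2 months (3 experiments) and 6–8 months (3 experiments, labelled 6 months) were pooled, 2–5 males and females per experiment, and GFP+ cells with or without tdTomato were taken by flow cytometry from the dissociated dentate gyrus. Of the libraries at 2 months, 2 were summed as the first experiment, one of them also holding GFP-tdTomato- cells. That they belong together was inferred from the number of experimental days in the study's methods, since the labels do not say so. The methods also state that tdTomato+ and tdTomato- cells of the first dataset were sequenced apart. Cell types within this experiment may therefore differ in library, which summing per experiment does not separate. Libraries at 2 months used Version 2 of the 10x 3′ chemistry and the others Version 3, so age and chemistry cannot be told apart between 2 months and the other ages. The 8 libraries held 4861883 to 43826338 UMIs (unique molecular identifiers, 1 per captured transcript), with medians of 1960 to 7637 UMIs per barcode. A level is given in CPM, the UMIs of a gene per 1000000 UMIs summed over the cells of a type in 1 experiment, and n counts experiments. CPM is thus a share of UMIs and not a count per cell. Since UMIs are counted at transcript ends, levels are compared between cell types and not between genes.

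Notch receptors are cleaved when a Delta or Jagged ligand on a neighbouring cell binds them, and the freed intracellular domain joins the DNA-binding protein RBPJ to switch on genes of the Hes and Hey families. Hes1, Hes5 and Hey1 are repressors that hold proneural genes down, whereas Hes6 is a relative that is not switched on by Notch in the classical way and opposes Hes1. Mfng, manic fringe, adds sugars to Notch and changes which ligands it answers to. In the adult hippocampus, Notch signalling is known for keeping stem cells quiescent, and in vessels Notch3 is a classical receptor of mural cells.

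RefSeq promoter windows of GRCm38.p6 were matched for 7 of the 10 genes (Notch1, Notch2, Notch3, Dll1, Jag1, Hes5 and Hes6), and were searched on both strands for TGGGAA, the core of the RBPJ site. In the 250 bases before a gene start, 21.6% of 32851 windows held it at least once and 2.77% at least 2 times. Of the 7 genes only Hes5 held it, at -226 on the opposite strand and at -82 on the strand of the gene, counted from the gene start. The window of Hes5 (chr4:154960673-154960922, plus strand) is shown with both matches in capitals, beside that of Hes6 (chr1:91414039-91414288, minus strand), which holds none, because the levels of these 2 genes differed along the lineage. A match is a run of letters and not a measured binding site.
Hes5: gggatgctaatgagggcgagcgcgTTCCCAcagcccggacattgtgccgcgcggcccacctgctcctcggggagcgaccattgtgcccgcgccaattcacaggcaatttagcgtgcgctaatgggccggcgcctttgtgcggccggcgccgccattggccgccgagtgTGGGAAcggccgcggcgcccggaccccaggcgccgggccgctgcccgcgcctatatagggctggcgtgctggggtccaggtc
Hes6: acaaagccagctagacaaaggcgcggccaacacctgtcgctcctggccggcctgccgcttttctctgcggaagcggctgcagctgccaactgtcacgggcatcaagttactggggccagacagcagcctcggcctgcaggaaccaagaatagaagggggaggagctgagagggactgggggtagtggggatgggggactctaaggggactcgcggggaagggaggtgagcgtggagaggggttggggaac

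**Figure D1:**
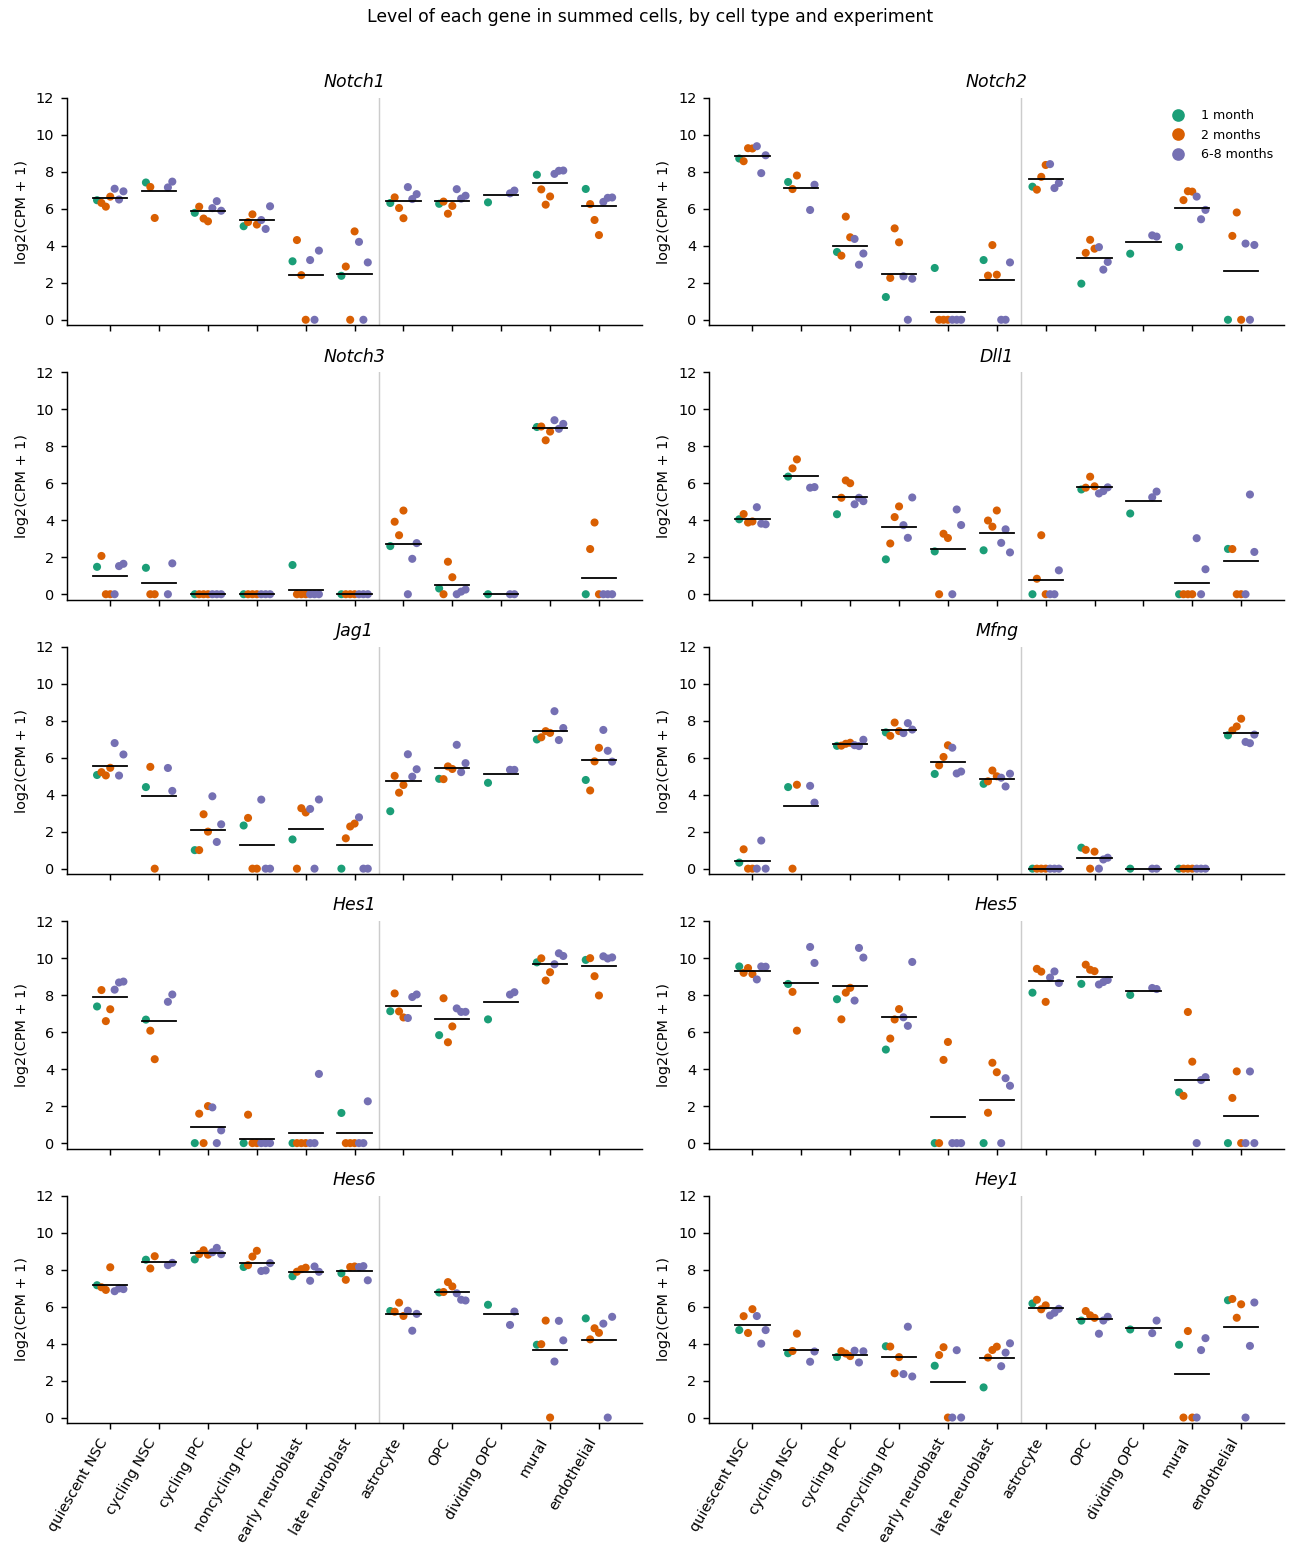
Level of each of the 10 genes by cell type on a log2(CPM + 1) axis, 1 point per experiment with at least 10 cells, coloured by age, with the mean of the log values as a bar. The grey line separates the neurogenic lineage on the left from the other cell types. Notch3 lies between 320 and 681 CPM in mural cells, and Hes1 does not pass 3.01 CPM in either IPC type.

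Oligodendrocytes, with 6540 of the 18998 gated cells, were low in all 10 genes and serve as a low reference. The gated quiescent NSCs carried 4517 to 5664 CPM of the 12 NSC markers at 2 months and 9821 to 10750 CPM at the other ages, which used Version 3. Median UMIs per quiescent NSC were 1269 to 2473 at 2 months and 3665 to 5878 at the other ages. The part of depth in the gates was not tested. The astrocytes carried 4433 to 7483 CPM of the 12 astrocyte markers. In oligodendrocytes the means over 7 experiments ran from 0.254 CPM for Mfng to 7.39 CPM for Dll1, with 20.4 CPM for Hes6. Free RNA was not measured, and other types could lie lower, as for Dll1 with 1.48 CPM in astrocytes and 1.25 CPM in mural cells. Levels near the reference are therefore read here as low and not told apart from background. By this measure Notch1 was above the reference in every lineage type up to the IPC and Hes6 in every lineage type. Hes1 was above it in NSCs but in neither IPCs nor neuroblasts.

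Among the receptors, Notch2 (chr3:98013527-98150361, GRCm38 like all coordinates here) was highest at the NSC end of the lineage. Its level in quiescent NSCs was 243 CPM at the lowest, 476 CPM at the median and 669 CPM at the highest of 7 experiments, the highest mean of the 13 cell types (490 ± 154 CPM, SD). Astrocytes followed at 210 ± 90.5 CPM and were lower in 7 of 7 experiments, though the ranges overlap. In cycling NSCs the level was 150 ± 59.6 CPM (n = 5), in cycling IPCs 18.2 ± 13.7 CPM and in noncycling IPCs 8.57 ± 10.9 CPM (n = 7 each), the last near the 6.45 CPM of oligodendrocytes. Early neuroblasts held 3 UMIs in all.

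Notch1 (chr2:26457903-26516663) had its highest mean in mural cells (187 ± 82.0 CPM, n = 7) and was spread more evenly. In quiescent NSCs it had 97.5 ± 23.7 CPM, in astrocytes 90.1 ± 32.2 CPM and in OPCs 87.4 ± 25.9 CPM (n = 7 each), 3 neighbours in the order of levels whose ranges overlap. Cycling NSCs stood at 136 ± 53.3 CPM (n = 5), with 142 to 177 CPM in 4 experiments and 44.5 CPM, from 2 UMIs, in the second experiment at 2 months. Cycling IPCs kept 59.0 ± 15.4 CPM and noncycling IPCs 42.3 ± 14.0 CPM. Early neuroblasts had 7.42 ± 6.79 CPM and late neuroblasts 8.89 ± 9.78 CPM.

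Notch3 (chr17:32120820-32166852) was found mainly in mural cells, with 514 ± 114 CPM (n = 7). Not a single UMI was found in 687 cycling IPCs, 419 noncycling IPCs or 412 late neuroblasts, and quiescent NSCs had 13 UMIs in 1640 cells (1.28 ± 1.29 CPM). Astrocytes came next after mural cells at 8.28 ± 7.52 CPM, from 29 UMIs in 1052 cells. Of these 29 UMIs, 19 lay in the 741 astrocytes without a UMI of any of 12 mural markers.

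The ligands split by cell type. Dll1 (chr17:15367354-15376872), a Delta ligand, was highest in cycling NSCs at 91.2 ± 43.1 CPM (n = 5), with single values of 53.3 CPM and 54.5 CPM in experiments 2 and 3 at 6–8 months, 81.2 CPM at 1 month, and 111 and 156 CPM in the first and second at 2 months. OPCs followed at 54.8 ± 12.4 CPM (n = 7) and cycling IPCs at 40.7 ± 18.8 CPM (n = 7), each next to the other in the order with overlapping ranges. Quiescent NSCs had 16.3 ± 4.48 CPM, and astrocytes 3 UMIs in 1052 cells. Jag1 (chr2:137081456-137116644), a Jagged ligand, differed from it. Its mean was highest in mural cells (183 ± 84.7 CPM), then in endothelial cells (72.6 ± 54.5 CPM), quiescent NSCs (51.0 ± 29.6 CPM) and OPCs (47.5 ± 25.9 CPM), with n = 7 in each and ranges that overlap between neighbours. In IPCs and neuroblasts its means lay between 2.32 and 5.52 CPM.

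Mfng (chr15:78755882-78773475) had its highest mean in noncycling IPCs. Quiescent NSCs held 3 UMIs of it in 1640 cells, and cycling NSCs 24 UMIs in the experiments compared (15.0 ± 9.52 CPM, n = 5). In cycling IPCs its level was 98.1 CPM at the lowest, 101 CPM at the median and 125 CPM at the highest of 7 experiments. Noncycling IPCs had 185 ± 36.5 CPM, early neuroblasts 58.7 ± 28.2 CPM and late neuroblasts 28.9 ± 6.30 CPM. Outside the lineage, endothelial cells reached 169 ± 57.8 CPM (n = 7) and microglia 49.4 and 182 CPM in the 2 experiments with at least 10 of them. Astrocytes, dividing OPCs and mural cells had no UMI of Mfng at all.

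The 4 bHLH genes went separate ways. Hes1 (chr16:30064384-30067796) had its highest means in mural (872 ± 279 CPM) and endothelial cells (847 ± 326 CPM), which overlap, then in microglia, in quiescent NSCs (268 ± 131 CPM, n = 7), and in dividing OPCs (216 ± 99.4 CPM, n = 3). It reached 130 ± 98.1 CPM in cycling NSCs and 1.21 ± 1.37 CPM in cycling IPCs, the latter at the 1.20 CPM of oligodendrocytes. Hey1 (chr3:8663359-8667256) had its highest mean in astrocytes (61.2 ± 12.7 CPM), followed by endothelial cells (51.7 ± 33.9 CPM), OPCs (39.8 ± 9.57 CPM) and quiescent NSCs (33.4 ± 15.1 CPM), against 2.82 CPM in oligodendrocytes.

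Hes5 (chr4:154960923-154962371) had means of 653 ± 115 CPM in quiescent NSCs, 633 ± 594 CPM in cycling NSCs (n = 5), 534 ± 164 CPM in OPCs, 529 ± 532 CPM in cycling IPCs and 472 ± 186 CPM in astrocytes (n = 7 in the others), neighbours in the order whose ranges overlap. Noncycling IPCs had 202 ± 306 CPM, so that Hes5, unlike Hes1, had means above that of oligodendrocytes in both IPC types. In cycling IPCs without a UMI of any NSC marker, 2 to 22 cells per experiment, Hes5 had 0 to 408 CPM. Such noncycling IPCs, 3 to 43 cells per experiment, had 0 to 86.8 CPM, with no Hes5 UMI at 6–8 months. The part of NSC markers in these levels was not tested. In early and late neuroblasts the means of Hes5, 9.28 and 7.53 CPM, lay near the 7.27 CPM of oligodendrocytes. Hes6 (chr1:91411483-91414038) reached its highest mean in cycling IPCs (476 ± 64.8 CPM), and late neuroblasts still had 244 ± 54.3 CPM against 147 ± 58.7 CPM in quiescent NSCs. Astrocytes (49.9 ± 14.4 CPM) and mural cells (18.1 ± 14.0 CPM) were low in Hes6.

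The first step compared was from quiescence into the cell cycle. The fits were run with edgeR over all genes, with the experiment as a block, on 5 experiments that had at least 10 cycling NSCs. Of the 10 genes, 8 passed the minimum of 30 UMIs and all 8 passed an adjusted p of 0.05, 3 higher and 5 lower. Of the 11015 genes tested 41.2% were called, 19.1% higher and 22.1% lower, so a call is common here. Over all gated cells, median UMIs per cell were 3994 in quiescent and 10737 in cycling NSCs. A lower share in cycling NSCs therefore need not mean fewer UMIs of a gene per cell. Cycling NSCs had more Dll1 (log2 fold change 2.29, standard error 0.27, adjusted p = 1.11e-16), more Hes6 (1.29, standard error 0.15) and more Notch1 (0.67, standard error 0.17). Dll1 and Hes6 were higher in 5 of 5 experiments with no overlap between the groups, and Notch1 in 4 of 5. Notch2 had a level lower by 1.60 on the log2 scale (standard error 0.17, adjusted p = 3.75e-20), in 5 of 5 experiments and without overlap. Hes1 (−0.99, standard error 0.17) and Hey1 (−1.30, standard error 0.41) were lower in 5 of 5 experiments, and Jag1 (−0.82, standard error 0.30) in 3 of 5. The call was lost in 5 of 14 alternative fits for Jag1 (adjusted p up to 0.556), in 2 of 13 for Hey1 (up to 0.067) and in 1 of 14 for Hes1, where it was 0.05002. The median over the 8 genes was −0.59, against −0.11 over all genes tested. Notch3 and Mfng had too few UMIs to be tested. The ratio of Mfng in cycling over quiescent NSCs was 35.7 (95% exact interval 10.8 to 185, counting error only), from 24 against 3 UMIs. Between the same cells the summed level of 10 IPC markers went from a median of 39.7 CPM (13.1 to 137) in quiescent NSCs to 348 CPM (337 to 890) in cycling NSCs, where 5 of the 10 were detected, and that of 12 neuronal markers from 163 to 958 CPM. The gates set part of these levels. Quiescent NSCs could carry at most 1 IPC marker and 3 neuronal markers, while cycling NSCs had only to carry fewer IPC than NSC markers. Cycling NSCs could also hold no UMI of the IPC markers Eomes, Neurog2 and Neurod4. The part of these markers in the result was not tested.

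Hes5 stood apart in this step because its experiments split into 2 sets. In quiescent NSCs the 7 experiments lay close together, from 462 to 752 CPM. In cycling NSCs, experiments 2 and 3 at 6–8 months had 1562 and 857 CPM, whereas the 1-month experiment had 389 CPM and the first and second at 2 months 289 and 66.7 CPM, the last from 3 UMIs. Over all 5 the log2 fold change was −0.37 (standard error 0.16, adjusted p = 0.0499), a call that was lost or turned in 11 of 14 alternative fits. The turned fit, with marker minimums higher by 1, held no experiment at 2 months, since too few cycling NSCs were left in them. Without the 2 high experiments, which were picked for these levels, the fitted value was −1.32, a description whose direction the choice fixed.

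**Figure D2:**
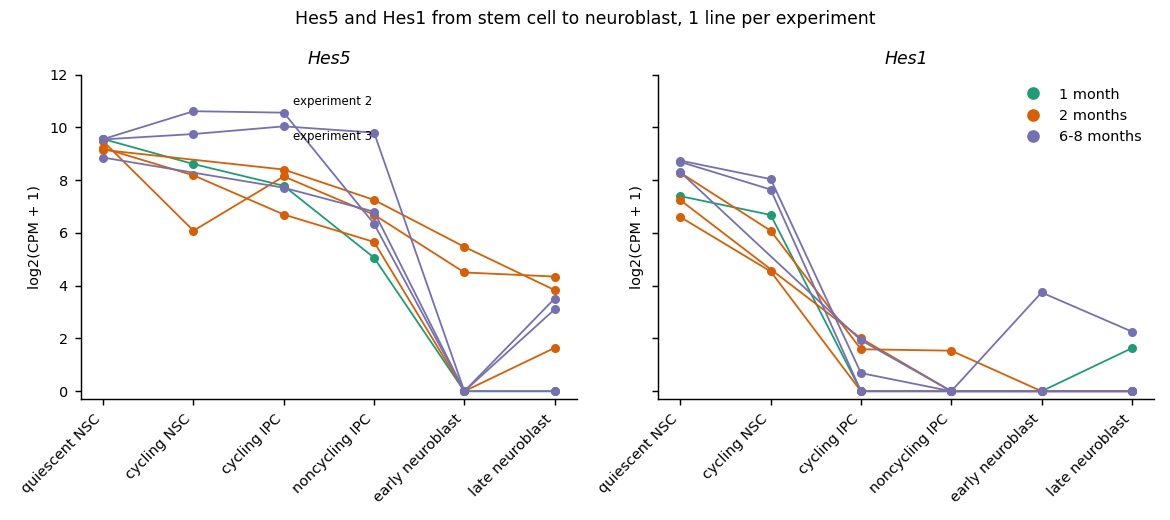
Levels of Hes5 and Hes1 on a log2(CPM + 1) axis along the neurogenic lineage, 1 line per experiment, coloured by age. Experiments with fewer than 10 cycling NSCs have no point there and their line joins the neighbouring types. The lines marked experiment 2 and experiment 3 are those at 6–8 months in which Hes5 reached 1504 and 1049 CPM in cycling IPCs.

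The same 2 experiments stood out one step on. Cycling IPCs had 1504 and 1049 CPM of Hes5 in them, against 103 to 337 CPM in the other 5 experiments, and the remaining experiment at 6–8 months was among the low ones at 208 CPM. A Hes5 UMI was found in 74.4% and 63.7% of the cycling IPCs of the high experiments, and in 22.0% to 39.7% of those of the others. Median UMIs per cell were 12521 and 16104 in the high experiments, and 12319 in the 1-month experiment, where 36.5% of the cells had a Hes5 UMI. The summed level of 12 NSC markers was 585 and 618 CPM in the high experiments, within the 428 to 989 CPM of the others, and that of 20 cycling markers was 7488 and 6464 CPM against 3958 to 6181 CPM. Their part in the result was not tested. In cycling IPCs without any NSC marker, Hes5 had 26.4 CPM (3 cells) and 408 CPM (10 cells) in the high experiments, against 0 to 196 CPM in the others. Among noncycling IPCs, only experiment 3 stayed high, at 890 CPM, and its 243 UMIs came from 6 of 30 cells. Early neuroblasts of both high experiments had no Hes5 UMI.

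From cycling NSCs to cycling IPCs, 9 genes could be tested and 7 were called, 2 higher and 5 lower, against 22.5% of 10554 genes, 11.5% higher and 11.0% lower. Mfng was higher in cycling IPCs (2.73 on the log2 scale, standard error 0.27, adjusted p = 5.58e-22), in 5 of 5 experiments and without overlap. Hes6 was higher by 0.53 (standard error 0.13), a call lost in 2 of 13 alternative fits (adjusted p up to 0.283). The receptors and ligands were lower. The log2 fold changes were −3.52 for Notch2, −3.29 for Jag1, −1.29 for Notch1 and −1.28 for Dll1. Notch1, Notch2 and Dll1 were lower in 5 of 5 experiments, Jag1 in 4 of 5. Hes1 had 243 UMIs in cycling NSCs against 3 UMIs in cycling IPCs of the same 5 experiments (edgeR adjusted p = 7.56e-99). The ratio of the pooled levels was 359 (95% exact interval 121 to 1754, counting error only), and no cycling IPC experiment passed 2.01 CPM in this comparison. The gates part these 2 types by the transcription factor genes Eomes, Neurog2 and Neurod4. Cycling NSCs could hold no UMI of them, and cycling IPCs needed at least 1. The gates also asked for more NSC than IPC markers in cycling NSCs and for the reverse in cycling IPCs. The summed NSC markers were 2134 to 4818 CPM in cycling NSCs (n = 5) and 428 to 989 CPM in cycling IPCs (n = 7). How far these choices shape the contrast in Hes1 was not tested. Hes5 (−0.18, standard error 0.13, adjusted p = 0.362) and Hey1 (−0.12, standard error 0.50, adjusted p = 0.906) were not called. The median over the 9 genes was −1.28 and that over all genes 0.05. This comparison shares its cycling NSCs with the one before, so the values of the 2 are not independent.

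From cycling to noncycling IPCs, 6 of 7 genes tested were called, 1 higher and 5 lower. Over all 10787 genes tested, 24.4% were called, 9.62% higher and 14.7% lower. Mfng was the member that was higher, by 0.65 (standard error 0.11, adjusted p = 6.66e-07), in 7 of 7 experiments and without overlap between 144 to 238 CPM and 98.1 to 125 CPM. The log2 fold changes were −1.59 for Dll1, −1.51 for Hes5, −1.4 for Notch2, −0.60 for Hes6 and −0.59 for Notch1. Hes5 and Notch2 were lower in 7 of 7 experiments, Dll1 and Hes6 in 6 and Notch1 in 5. Notch1 lost its call in 4 of 15 alternative fits (largest adjusted p 0.117), Notch2 in 2 of 14 (0.232) and Hes5 in 1 of 15 (0.128). Without the 2 experiments high in Hes5, its fitted value in this step was −1.63. Hey1 was not called (0.10, standard error 0.38). The median over the 7 genes was −0.60, against 0.01 over all genes. The gates differ in more than cycling. Noncycling IPCs needed more than 1 UMI of Eomes, Neurog2 and Neurod4, cycling IPCs at least 1, and only noncycling IPCs had a limit on late neuroblast markers. In cycling and noncycling IPCs, the median summed IPC markers were 4387 and 6558 CPM. Neuronal markers were 6212 and 10747 CPM, and NSC markers 585 and 357 CPM. Their part in the result was not tested.

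At the next step, into early neuroblasts, 4 of 6 genes tested were called and all 4 were lower, against 17.1% of 9042 genes, 8.12% higher and 8.98% lower. The log2 fold changes were −3.84 for Hes5 (standard error 0.30, adjusted p = 7.70e-35), −2.4 for Notch1 (standard error 0.43), −1.75 for Mfng (standard error 0.18) and −0.54 for Hes6 (standard error 0.12), whose call was lost in 1 of 15 alternative fits. Of these, Notch1 and Mfng did not overlap between the groups. Hes5 was lower in 7 of 7 experiments. It had 32.4 to 890 CPM in noncycling IPCs. Early neuroblasts had no UMI of it in 5 experiments, and 5 and 6 UMIs in experiments 2 and 3 at 2 months. By the gates, noncycling IPCs needed more than 1 UMI of Eomes, Neurog2 and Neurod4. Early neuroblasts could hold none, and at most 1 NSC marker. The summed NSC markers were 270 to 513 CPM in noncycling IPCs and 74.3 to 147 CPM in early neuroblasts. Noncycling IPCs without an NSC marker had 0 to 86.8 CPM of Hes5. The part of the gates in this contrast was not tested. Dll1 and Hey1 were not called, with adjusted p of 0.374 and 0.461, and the median over the 6 genes was −1.31 against −0.04 over all genes. Between early and late neuroblasts only Mfng and Hes6 had enough UMIs, and neither was called in edgeR, where 0.379% of 8699 genes were, 0.264% higher and 0.115% lower, and 466 had an unadjusted p under 0.05. DESeq2 called 5 genes. The unadjusted p values were 0.0014 for Mfng and 0.524 for Hes6. Mfng was lower in late neuroblasts in 7 of 7 experiments (−0.92, standard error 0.29, adjusted p = 0.2), and Hes6 differed by 0.08 (standard error 0.12).

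**Figure D3:**
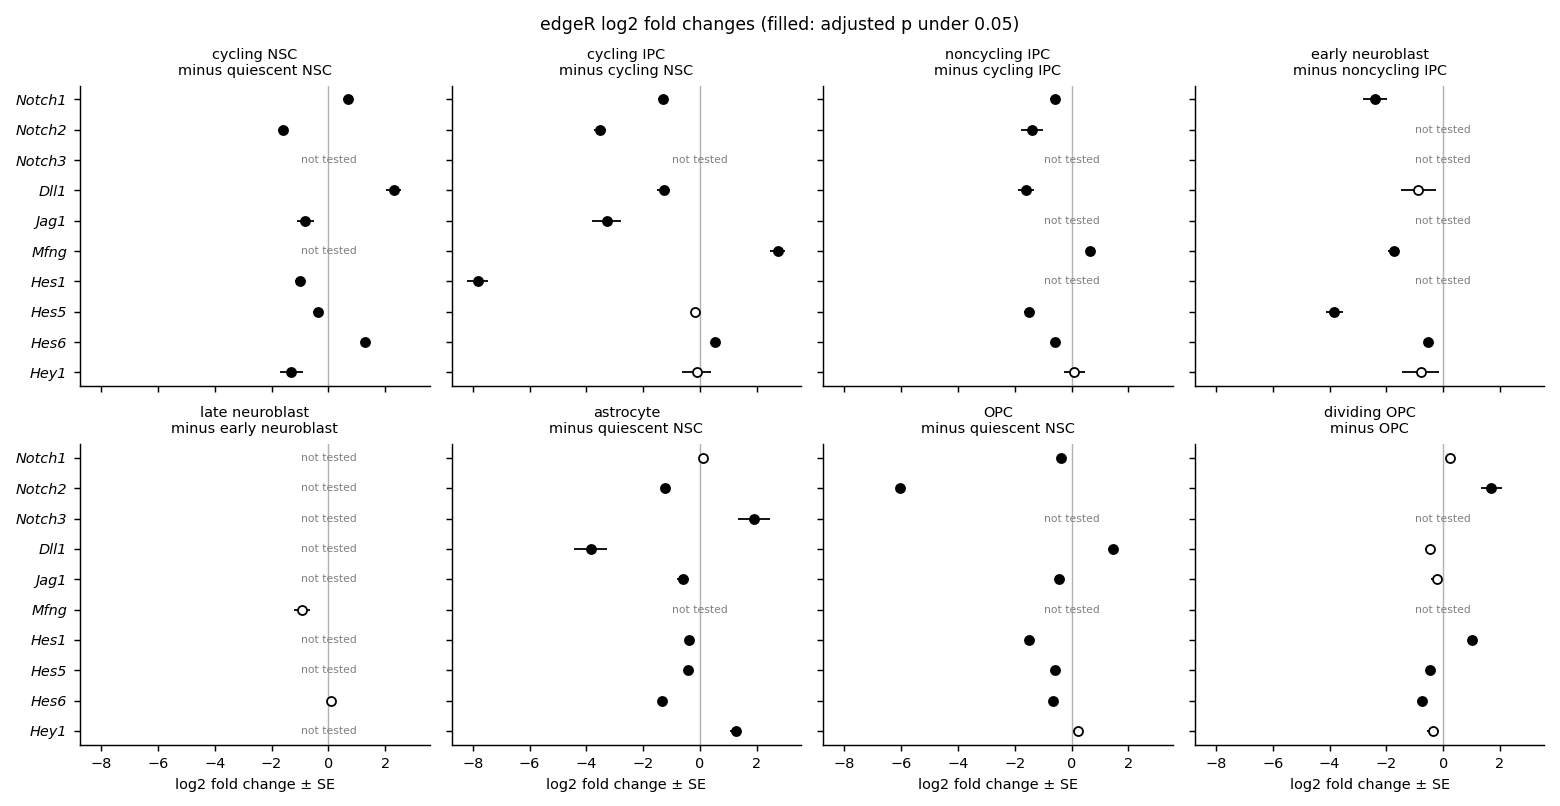
edgeR log2 fold changes of the 10 genes with their standard errors in 8 comparisons of cell types. Filled points passed an adjusted p of 0.05 and open points did not, and genes under 30 UMIs are marked as not tested. Mfng is higher in both IPC comparisons, at 2.73 and 0.65, and Notch2 is lower in each of the 3 comparisons from quiescent NSCs to noncycling IPCs.

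The other genes of the pathway were read from a list of 64 in 7 groups. From quiescent to cycling NSCs, 12 of 52 tested were higher and 14 lower, against 19.1% and 22.1% of all genes tested. Neurl1b, a ubiquitin ligase that acts on Notch ligands, had 3 UMIs in quiescent NSCs and 49 in cycling NSCs (ratio 72.9, 95% exact interval 23.5 to 365). Dll3, an inhibitory Delta relative, was higher by 2.75 and the corepressor Ctbp1 by 1.01. Id4 (−2.97) and Id3 (−1.93), inhibitors that bind bHLH partners, were lower. Aph1c, of the gamma-secretase that cuts Notch, was lower too, with 3 UMIs against 52 (ratio of quiescent over cycling NSCs 3.89, 95% exact interval 1.26 to 19.5).

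In cycling IPCs against cycling NSCs, 6 of 51 were higher and 8 lower, against 11.5% and 11% of all genes tested. Lfng, the fringe relative of Mfng, was lower (−4.33), from 92.2 to 5.42 CPM, while Id2, Dll4 and Dll3 were higher by 1.75, 1.68 and 1.17. Id3 (−3.88) and Id4 (−2.26) were lower. In noncycling against cycling IPCs, 5 of 51 were higher, with Psen2, Numbl and Dll3 at 1.24, 0.55 and 0.52, and 6 lower, with Id1, Neurl1b and Id3 at −3.28, −2.77 and −1.70. Over all genes tested in that step, 9.62% were higher and 14.7% lower. In early neuroblasts, 7 of 47 were higher, with Tle2, Dner and Rfng, the remaining fringe enzyme, at 1.90, 1.36 and 1.27. The 5 lower ones included Dll3 (−1.28) and Poglut1 (−1.11). Of all genes tested there, 8.12% were higher and 8.98% lower. Between early and late neuroblasts edgeR called 0 of 45, against 0.379% of all genes tested, and 3 of the 45 had an unadjusted p under 0.05.

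Astrocytes share many genes with NSCs, and the comparison with quiescent NSCs asks which of the 10 set them apart. Of 9 tested, 8 were called, 2 higher and 6 lower, against 30.9% of 11334 genes, 15.1% higher and 15.8% lower. The quiescent NSCs are also those of the first comparison and of the one with OPCs. Hey1 was higher in astrocytes by 1.26 (standard error 0.19, adjusted p = 2.01e-10), in 7 of 7 experiments, and Notch3 by 1.89 (standard error 0.56, adjusted p = 0.00350), in 6 of 7, the remaining one having no UMI of it in either type. Notch2 (−1.24, standard error 0.12) and Hes6 (−1.32, standard error 0.15) were lower, both in 7 of 7 experiments, and the 2 types did not overlap in Hes6. Dll1 was lower in 7 of 7 experiments without overlap, with 3 UMIs against 111 (ratio of quiescent NSCs over astrocytes 17.9, 95% exact interval 5.98 to 88.3). Jag1 (−0.61), Hes5 (−0.41) and Hes1 (−0.37) were lower in 7, 5 and 6 of 7 experiments. Their calls were lost in 4 of 14, 4 of 15 and 5 of 15 alternative fits, with adjusted p up to 0.217, 0.310 and 0.404. Notch1 was not called (0.10, standard error 0.14). The median over the 9 genes was −0.41, against −0.06 over all genes. The summed level of 12 NSC markers in the astrocytes was 1000.5 to 5105 CPM, and its part in the result was not tested. Of 52 other pathway genes, 14 were higher, led by Dner (5.14), Id2 (1.60) and Aph1b (1.55), and 12 lower, among them Maml3 (−1.57) and Fbxw7 (−0.78).

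OPCs differed from quiescent NSCs in 7 of 8 genes, 1 higher and 6 lower, against 59.3% of 13744 genes, 35.2% higher and 24.1% lower, a background at which most genes are called. Notch2 (−6.03, standard error 0.13, adjusted p = 1.76e-42), at 10.6 ± 5.57 CPM, and Hes1 (−1.51, standard error 0.11) were lower, both in 7 of 7 experiments. Dll1 was higher by 1.45 (standard error 0.16), in 7 of 7 experiments and without overlap between 42.7 to 80.9 CPM and 12.8 to 25.1 CPM. Of its 1689 UMIs in OPCs, 1611 lay in the 5261 of 5572 cells without any of 10 IPC markers. Hes6 (−0.67), Hes5 (−0.60), Jag1 (−0.44) and Notch1 (−0.38) were lower with overlapping ranges, and the calls of Jag1 and Notch1 were lost in 2 of 15 alternative fits each. Hey1 was not called. The median over the 8 genes was −0.52, against 0.15 over all genes. Among 57 other pathway genes, 23 were higher and 16 lower. Dner, a Notch ligand of neural cells, was higher by 7.30, Dlk2 had a ratio of 96.6 (95% exact interval 33.0 to 469), and Neurl1a, with no UMI in quiescent NSCs, was at least 20.7-fold higher against 3 UMIs over that group. Id4 (−6.92), Id1 (−6.31) and Lfng (−6.19) were lower.

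Dividing OPCs could be compared with other OPCs in 3 experiments, where 4 of 8 genes were called, 2 higher and 2 lower, against 20.6% of 13221 genes, 11.2% higher and 9.37% lower. Hes1 was higher by 1.00 (standard error 0.10, adjusted p = 9.11e-21), with 102, 261 and 286 CPM in dividing OPCs beside 56.3, 136 and 136 CPM in OPCs at 1 month and in experiments 2 and 3 at 6–8 months. Notch2 was higher by 1.69 (standard error 0.37), from 5.39 ± 2.44 to 18.4 ± 6.52 CPM. Hes6 (−0.75) and Hes5 (−0.48) were lower, each in 3 of 3 experiments and without overlap, and Hes5 lost its call in 1 of 10 alternative fits. Hes1 differed in opposite directions in the 2 dividing precursors, higher in dividing OPCs and lower in cycling NSCs, but the difference of the 2 was not tested. Dll1 (−0.47, adjusted p = 0.0613), Notch1, Jag1 and Hey1 were not called, and the median over the 8 genes was −0.30 against −0.07 over all genes. Of 58 other pathway genes, 5 were higher, led by Neurl1b (6.11), Id1 (3.74) and Nrarp (0.56), a feedback inhibitor of Notch. The 8 lower ones were led by Id3 (−1.02), Psen2 (−0.82) and Dtx3 (−0.72).

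**Figure D4:**
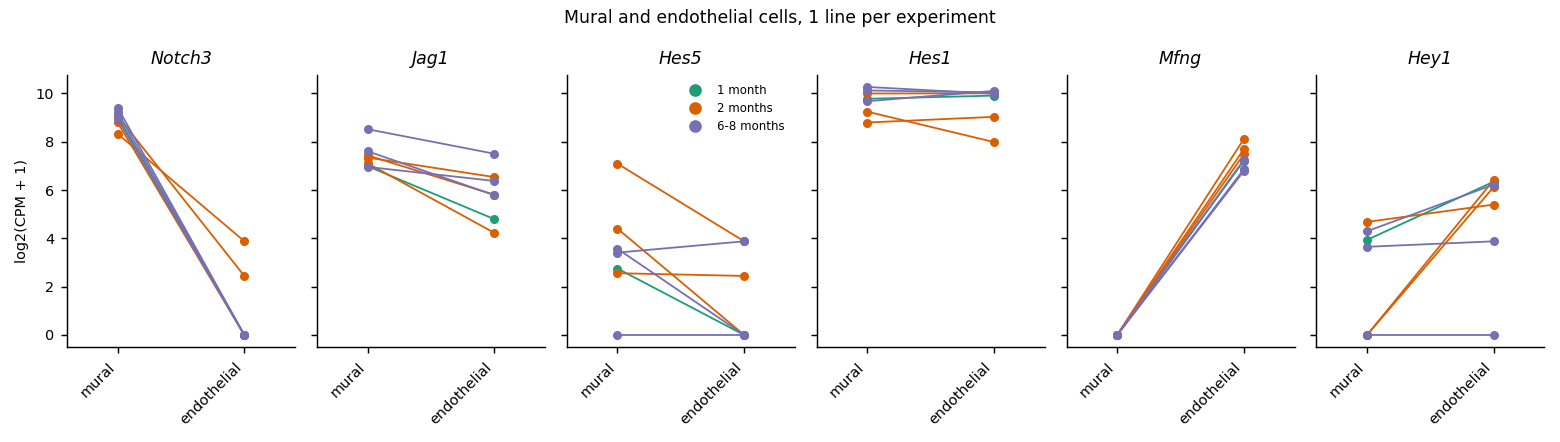
Levels of 6 genes in mural and endothelial cells on a log2(CPM + 1) axis, 1 line per experiment, coloured by age. All 7 lines fall from mural to endothelial cells for Notch3 and Jag1 and climb for Mfng, which has no UMI in mural cells, while those of Hes1 cross, at means of 872 and 847 CPM.

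Mural cells, which wrap the vessels, and endothelial cells, which line them, were compared over 7 experiments. Of 9 genes tested, 7 were called, 5 higher and 2 lower in mural cells, against 38.0% of 8750 genes, 19.2% higher and 18.8% lower. Their median was 1.04, against 0.04 over all genes. The summed level of 12 mural markers was 714 to 1642 CPM in endothelial cells and 34569 to 50546 CPM in mural cells. Notch3 had 1075 UMIs in 885 mural cells and 2 UMIs in 403 endothelial cells, a ratio of 259 (95% exact interval 71.5 to 2140), with 320 to 681 CPM in mural cells and at most 13.7 CPM in endothelial cells (edgeR adjusted p = 2.32e-99). Mfng had 154 UMIs in endothelial and none in mural cells, so endothelial cells were at least 107-fold higher against 3 UMIs over the mural cells. Of those 154 UMIs, 70 lay in the 205 endothelial cells without any of 12 mural markers. Notch2, Jag1 and Notch1 were higher in mural cells by 2.02, 1.54 and 1.04, each in 7 of 7 experiments with overlapping ranges. Hey1 was lower in mural cells (−2.37, standard error 0.38), in 6 of 7 experiments.

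Hes1 was close in the 2 vessel types, 872 ± 279 and 847 ± 326 CPM (−0.06, standard error 0.13, adjusted p = 0.797). Hes5 was called higher in mural cells on 27 against 3 UMIs (ratio 4.33, 95% exact interval 1.33 to 22.3, edgeR adjusted p = 0.0208). Of the 27 UMIs, 11 came from the second experiment at 2 months and 5 lay in the 542 mural cells without an NSC marker. Of 14 alternative fits run, Hes5 passed the filter in 7, and its call was lost in 2 of these. Of 50 other pathway genes, 13 were higher and 15 lower in mural cells. Heyl and Hey2, relatives of Hey1, had 636 and 282 UMIs in mural cells and 2 and 1 in endothelial cells, ratios of 153 (42.2 to 1267) and 136 (24.2 to 5381), and Dtx4 a ratio of 21.4 (5.76 to 180). Jag2, Dll4 (−5.18) and Lfng were lower in mural cells, and the ratios of endothelial over mural cells were 136 (36.9 to 1135) for Jag2 and 33.9 (10.9 to 170) for Lfng.

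Age could be tested in quiescent NSCs within Version 3 alone, with 3 experiments at 6–8 months against 1 at 1 month, whose spread is assumed to be that of the others, and every p in this comparison rests on that assumption. Without experiment 3 at 6–8 months, edgeR called 0 genes of all tested. Of 8 genes tested 1 was called, Hes1, which was higher, against 1.21% of 10080 genes, 0.784% higher and 0.427% lower. It had 167 CPM at 1 month and 314, 412 and 426 CPM at 6–8 months (log2 fold change 1.13, standard error 0.28, adjusted p = 0.0108). The call was lost in 3 of 10 alternative fits, which were those without any 1 of the 3 experiments at 6–8 months, with adjusted p of 0.0549, 0.0548 and 0.840 without experiments 1, 2 and 3. The alternative with at least 20 cells per sum repeated the main fit, since no sum was smaller. At 2 months, in the other chemistry, Hes1 spread from 95.9 to 309 CPM, so that its range covers the 1-month value. The summed level of 8 immediate-early genes, a list chosen after Hes1 had been seen, was 2353 CPM at 1 month and 1800.0, 5208 and 5253 CPM in the 3 experiments at 6–8 months, and its part in the result was not tested.

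Jag1 had 32.5 CPM at 1 month against 110, 31.8 and 71.3 CPM at 6–8 months (0.96, adjusted p = 0.12, called in 3 of 10 alternative fits). The differences of Notch1, Notch2, Dll1, Hes5, Hes6 and Hey1 lay between −0.32 and 0.30 with adjusted p of 0.890 to 0.991. Of 50 other pathway genes 3 were called, all of them Id genes that were lower at 6–8 months, Id3 (−2.71), Id1 (−1.76) and Id2 (−1.04). These calls too were lost without experiment 3. Id3 went from 460 CPM at 1 month to 68.7 ± 37.0 CPM (n = 3). In astrocytes, Hes1 had 140 CPM at 1 month and 108 to 262 CPM at 6–8 months, and in OPCs 56.3 CPM and 136 to 155 CPM, given side by side without a test.

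**Figure D5:**
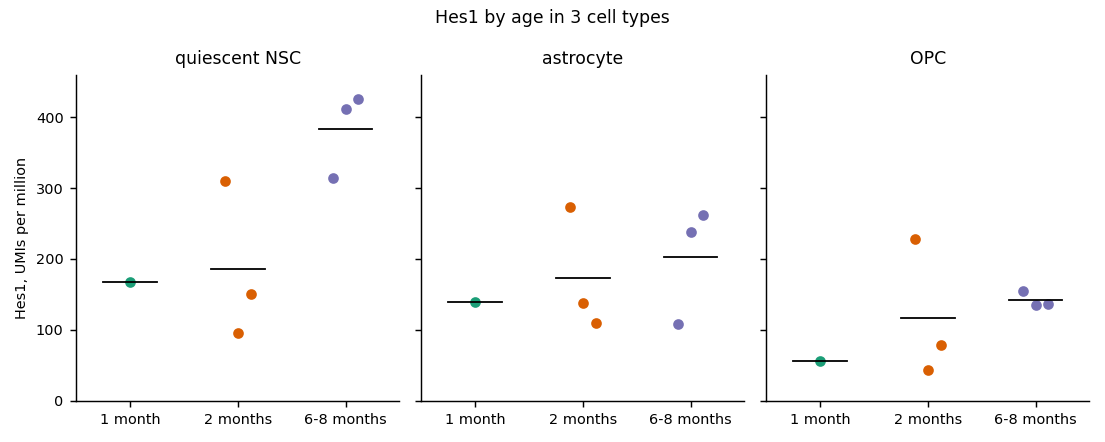
Level of Hes1 in CPM by age in quiescent NSCs, astrocytes and OPCs, 1 point per experiment and a bar at the mean. The 3 experiments at 6–8 months lie above the 1-month experiment in quiescent NSCs and OPCs. In astrocytes experiments 2 and 3 lie above it (238 and 262 against 140 CPM) and experiment 1 below it (108 CPM).

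Quiescent NSCs that carry recombined tdTomato have divided during labelling and are called resting by the study, and the others dormant. The limits the study set on reporter reads left 13 resting cells among 1640 gated quiescent NSCs, from 6 experiments, so only pooled levels with exact Poisson intervals (95%, counting error only) are given and no test. Notch1 had 272 CPM (145 to 465) in resting and 91.8 CPM (84.8 to 99.2) in dormant cells. Jag1 had 146 CPM (58.9 to 302) and 41.2 CPM (36.5 to 46.2). Notch2 went the other way, 314 CPM (176 to 518) against 432 CPM (417 to 448), with overlapping intervals, and those of Hes1, Hes6, Dll1 and Hey1 overlapped too. Hes5 had 2072 CPM (1684 to 2522) against 702 CPM (682 to 722). No UMI of Notch3 or Mfng was found among the 47787 UMIs of resting cells, where the exact upper limit was 77.2 CPM. With the same reporter limits for both chemistries, 10 cells were left. Notch1 then had 277 CPM (111 to 570), Hes5 2412 CPM (1845 to 3099) and Notch2 514 CPM (274 to 879). The order of Notch2 is thus not settled by the few cells gated here. The study itself, with its own sets of cells and a t test over cells, reports Notch2 as lower in resting than in dormant NSCs. Jag1 then had 158 CPM (43.1 to 405) against 41.5 CPM (36.8 to 46.5), with overlapping intervals. The pools also differ in their experiments, since 1 of the 13 resting cells came from the 1-month experiment, which gave 702 of the 1640 quiescent NSCs, and this mixture was not adjusted for.

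Over the 13 cell types, the genes whose mean log2(CPM + 1) ran most like that of each member were looked for among 15440 genes that were not gate markers. These correlations (Pearson's r over 13 types that share libraries and depth) describe a likeness of pattern only. Heyl was closest to Notch3 (r = 0.987), followed by Sod3 and Sh3d21. Sdc4, Ccdc80 and Acsf2 were closest to Notch2 (0.952, 0.926 and 0.921), and Hddc2, Serhl and Plod2 to Notch1 (0.902 to 0.914). Srcap, Gtf3c3 and Gm5141 were closest to Dll1 (0.930 to 0.936), and Il17rd, Cthrc1 and Tmem51 to Jag1 (0.944 to 0.955). Mfng ran with Eif3f, Rpl37a and Rpl27a (0.904 to 0.911). Hes1 ran with Tap2, Stom and H2-T22 (0.937 to 0.955), Hes5 with Wnt7b, Tmem209 and 2810459M11Rik (0.955 to 0.963), Hes6 with Apex1, 3110039M20Rik and Hfm1 (0.934 to 0.967), and Hey1 with Ankrd29, Lpar4 and Lmcd1 (0.917 to 0.964).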

How the data were processed

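Single cells of the dentate gyrus were measured by droplet 3′ RNA sequencing. The authors mapped reads to mm10 with added reporter elements, and deposited raw UMI counts of 8 libraries merged without normalization, with a list of genes and of barcodes. The submitters' processing notes name Cell Ranger 3.0.2, cutadapt 1.18 and Seurat. Of 26036 barcodes, 24376 passed limits of more than 500 genes and less than 10% of UMIs from mitochondria. Barcode sequences shared between libraries numbered 51, in 103 cells. Cell types were gated by the number of distinct markers with a UMI, out of 165 markers, limits being set on marker counts alone. This gave 18998 cells in 13 types, with 5378 in none, and cells with markers of several types were left out as possible doublets. A quiescent NSC, for example, had at least 3 of 12 NSC markers, at least as many of these as of 12 astrocyte markers and at most 1 of 20 cycling markers. No doublet caller was run.

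Counts were summed per type and experiment, with at least 10 cells per sum, and tested by the quasi-likelihood F test of edgeR 4.0.16 (R 4.3.3) with TMM scaling, genes with at least 30 UMIs over the comparison, and Benjamini-Hochberg adjustment over all genes tested. Cell types of 1 experiment come from the same mice, so the experiment entered as a block. The standard error is the log2 fold change divided by the root of F. Scaling by total UMIs, DESeq2 1.42.0, other filters, stricter and wider gates, no block and leaving out experiments were the alternatives. A minimum of 20 cells per sum was also used, which repeats the main fit where no sum is smaller. The step was tested on simulated counts of the same genes with known changes. Coordinates are those of GENCODE M21 on GRCm38.

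The 10 genes, the marker and pathway lists and the comparisons were chosen with earlier results of these data known. Besides the 10 genes, the text names for each comparison up to 3 pathway genes called higher and 3 called lower with the largest log2 fold change, and the 3 genes most like each member. A gene that this rule names is not reported here. Each experiment pooled 2–5 mice, so p-values rest on pools and not on single mice. Between cell types they set the difference within an experiment against its variation over experiments. edgeR estimates that variation partly from all genes together. A small p-value from few experiments therefore does not rest on the spread of that gene alone. For age they measure the spread of levels between pools.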

Additional observations from a re-analysis of the deposited data

Results flagged for a closer look

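Of 64 sets of 5 or 7 experiments (1 gene in 1 cell type, at least 30 UMIs), 7 held an experiment farther from the rest than Dixon's 95% limit, where chance alone gives about 1 in 20. Hes5 in noncycling IPCs was 890 CPM in the third experiment at 6–8 months, against 32.4 to 151 CPM in the other 6. The remaining cases at 2 months were Notch1 in cycling NSCs of the second experiment (44.5 CPM against 142 to 177 CPM), Notch2 in cycling IPCs of the same experiment (46.8 CPM against 6.89 to 21.0 CPM), Dll1 in its OPCs (80.9 CPM against 42.7 to 56.2 CPM) and Hes6 in quiescent NSCs of the third experiment (279 CPM against 113 to 142 CPM). Jag1 was high in the first experiment at 6–8 months, both in OPCs (103 CPM against 27.7 to 51.3 CPM) and in mural cells (366 CPM against 123 to 194 CPM).

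Of 58 contrasts compared between 2 months and 6–8 months, 1 had every experiment with enough cells on opposite sides by age. In cycling against quiescent NSCs, Hes5 was lower in both experiments compared at 2 months (mean log2 difference −2.21). It was higher in both compared at 6–8 months (0.63), a gap of 2.84. The latter are the 2 experiments described above as high in Hes5. The third experiment at 2 months and the first at 6–8 months, with 5 and 6 cycling NSCs, did not enter. The difference was not tested, and the ages also differ in chemistry.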

How the results depend on the processing

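Of 74 results for single genes of the 10, 53 kept their side of the threshold under every alternative run. A change of sign was counted as reversed only where either fit was called. Uncalled results could change sign and still count as kept, as Notch2 did for age (−0.34 to 0.33). Over 956 alternative values, 898 counted as kept, 51 lost the call, 6 gained one and 1 reversed. The reversed one was Hes5 in cycling against quiescent NSCs, at 0.11 (edgeR adjusted p = 0.536) with marker minimums higher by 1. Under that gate the first and second experiments at 2 months kept 3 and 4 cycling NSCs. Both dropped out, so their Hes5 levels did not enter the fit. Where no sum held fewer than 20 cells, a minimum of 20 cells repeated the main fit, and its values count as kept. Without the replicate block, which sets aside that the cell types of an experiment were paired by their mice, members called were 5 in cycling against quiescent NSCs, 3 in noncycling against cycling IPCs and 5 in astrocytes, and genes called were 1192 in cycling IPCs, 1338 in noncycling IPCs, 691 in early neuroblasts, 4 in late neuroblasts, 2218 in astrocytes and 1251 in dividing OPCs, against 2377, 2629, 1546, 33, 3506 and 2724 with it. No other count of calls moved by over 1.5 times without the block. DESeq2 called 1351, 1617, 757, 5 and 1245 genes in cycling IPCs, noncycling IPCs, early neuroblasts, late neuroblasts and dividing OPCs, 5 members in astrocytes, and 14 genes for age against 122. A filter on detection in 20% of cells tested fewer genes and called 967 genes and 2 members in early neuroblasts, 20 genes in late neuroblasts, 1681 genes and 3 members in astrocytes, 3611 genes in OPCs, 1539 genes and 4 members in mural cells, and 2 members for age. Marker minimums higher by 1 called 17 genes in late neuroblasts. Chosen after the data had been seen, a wider NSC gate called 250 genes and 2 members for age, and leaving out the 2 experiments high in Hes5 called 2553 genes in cycling against quiescent NSCs and 945 in cycling IPCs. The cause of these shifts was not tested, and some of these fits held fewer genes or experiments.

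Leaving out 1 experiment at a time, genes called ranged from 3452 to 4530 and members from 5 (without 1 month) to 8 in cycling against quiescent NSCs, genes from 1274 (without 1 month) to 2571 in cycling IPCs, 1001 (without 1 month) to 1439 in early neuroblasts, 21 (without the first at 2 months) to 39 in late neuroblasts, 1196 (without the third at 6–8 months) to 2485 in dividing OPCs, and 0 (without the third at 6–8 months) to 129 for age, with 0 to 1 members. For age, 70 genes were called without the first experiment at 6–8 months, and no fit was possible without the 1-month experiment. Scaling by total UMIs moved the median of all genes in OPCs from 0.15 to 0.40 and the share of calls that were higher from 59.4% to 72.8%, in noncycling IPCs that share from 39.5% to 53.4%, in astrocytes from 49.0% to 36.4% and for age from 64.8% to 74.8%. Resting cells and low genes are limited by their UMIs.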
